A study of Danio rerio with 9 samples.

Results

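Claudins and the proteins assembled with them at tight junctions were followed in male and female zebrafish kidneys. Members were taken by symbol from the deposited gene table: symbols that begin with cldn, tjp, ocln, cgn, f11r, marveld, pard3 or pard6, and crb followed by a digit. The rule found 64 of 30628 genes, with 63 different symbols, because pard3ba is carried by 2 gene identifiers. It used names only and no measured value, though it was chosen with earlier results of these data known. RNA was sequenced from whole kidneys of 12-month-old wild-type zebrafish of the WIK strain, in 4 male and 5 female libraries. The paper describes 5 sets of male kidneys. No treatment was named for either group, and no mutation apart from pkd1 in 2 male library names. The values are estimated counts per gene, shown here as CPM, that is, scaled to a common library size after TMM normalization for library composition. Male libraries are called M1, M2, pkd1M1 and pkd1M4, as in the table, and female ones F1 to F4 and F6. Wherever the values of all libraries of a sex stand in a row, they follow this order. Both pkd1-named libraries carry wt in their column names and were used as wild type. No female column name carries pkd1, so that naming is found in males only, and the labels do not explain it. Nothing in the labels says whether each library came from 1 fish, so p-values measure only the spread between these libraries.

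Tight junctions seal the space between neighbouring epithelial cells. Claudins span the membrane and set which ions and how much water pass between cells, some as barriers and others as pores, and the set of claudins differs from one nephron segment to the next. Occludin and the related MARVEL proteins, tricellulin among them, and the junctional adhesion molecule encoded by f11r also span the membrane. Zonula occludens proteins (tjp genes) and cingulins (cgn genes) lie beneath it and tie the strands to actin. Crumbs, Pard3 and Pard6 proteins set the apical side of the cell, where the junction forms. The adult zebrafish kidney also holds the blood-forming marrow, so a whole-kidney library mixes tubules with blood cells.

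The deposited counts summed to between 24902978 and 52986838 per library and did not differ detectably between the sexes (exact permutation test, 2-sided, p = 0.976). The tissue carried kidney markers in every library. A list of 16 proximal tubule markers summed to between 3214 and 14904 CPM, a list of 17 distal tubule markers to between 348 and 1507 CPM, and a list of erythroid markers to between 11753 and 52707 CPM. F1 stood apart in its oocyte markers, which summed to 6883 CPM there and to between 44.1 and 284 CPM in the other libraries. pkd1M4 had the highest summed skin and liver markers, at 979 and 1929 CPM.

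Junction genes that differed between the sexes were mostly higher in male kidneys. Of the 64 genes, 55 had enough counts to be tested, and 15 of those had an adjusted p under 0.05 in edgeR's quasi-likelihood test, where p-values were adjusted by the Benjamini-Hochberg method over the 22148 genes tested. A total of 14 were higher in males and 1, cldn11a, was lower. Over all genes tested, 13.2% passed this threshold in either direction, 7.02% as higher and 6.20% as lower in males. Past the further limit of 1.5 on the log2 scale were 6 junction genes, cldnb, cldn10b, cldne, cgnb, crb3a and crb3b, all higher in males, where 6.54% of all genes tested passed both limits, 3.48% as higher and 3.06% as lower. The median log2 fold change, male over female, was 0.48 over the 55 junction genes and -0.03 over all genes, and 67.3% of the junction genes against 48.2% of all genes had a value above 0. All 4 male values exceeded all 5 female values in 16 of the 55, against 8.42% of all genes tested, and lay below them in 3, against 8.06%. An unadjusted p under 0.05 without a call was seen for 5 genes, oclnb, tjp3, cldn5b, cldn23a and cldn10l2. By DESeq2 all 5 were called, cldn5b as lower and the others as higher in males. In whole kidneys, fewer cells of a type and less RNA per cell cannot be told apart.

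**Figure D1:**
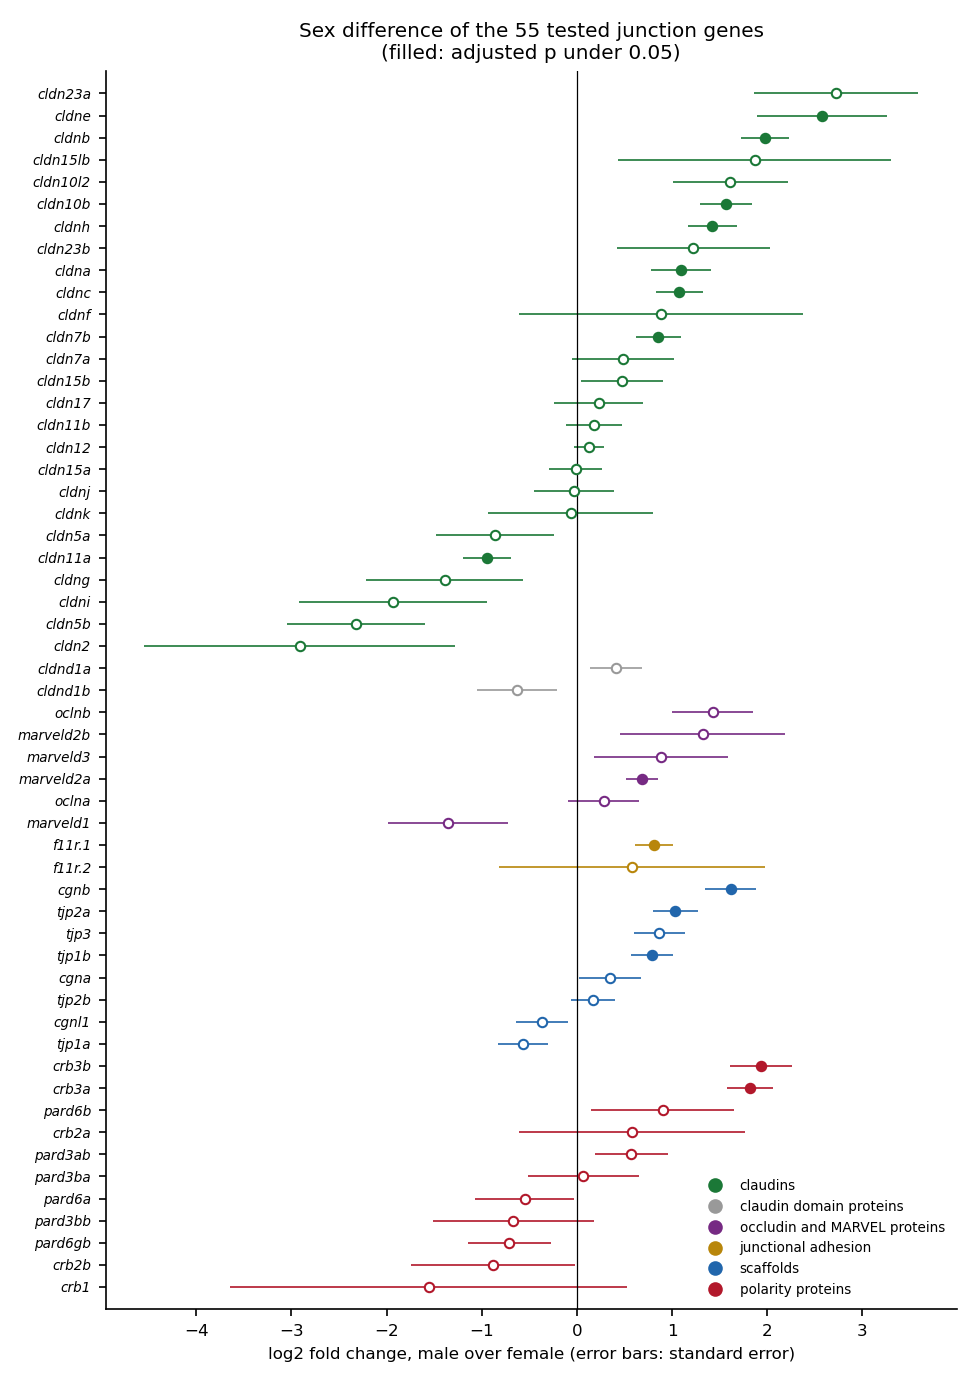
Log2 fold change, male over female, of the 55 tested junction genes by edgeR, grouped by role, with bars for the standard error and filled points for the 15 genes with an adjusted p under 0.05. Filled points lie to the right of 0 for 14 genes and to the left for cldn11a, and open points lie on both sides.

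The counts rested on several libraries. With the 2 pkd1-named males left out, 4 junction genes kept an adjusted p under 0.05 in edgeR's test, namely cldnb, cldn10b, cldnh and crb3a. Leaving out F2 brought the count to 7, leaving out pkd1M4 brought it to 8, and leaving out F4 brought the count past both limits from 6 to 3. The genes that kept the call when any one of the 9 libraries was left out were cldnb, cldn10b, cldnh, crb3a, crb3b and cgnb.

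Claudins made up 32 of the 64 genes, and 26 of them were tested. Of those, 7 were higher in males, 1 was lower and 18 did not pass, where 7.02% of all genes tested were called higher and 6.20% lower. A group of neighbours lies on chromosome 21 of GRCz11, the build of the coordinates, where cldnh, cldnc, cldnb and cldnd lie between 25739295 and 25778201 in that order, with gaps of 12856, 9614 and 10584 bases. The gene name table gives cldnh as cldn3c and cldnc as cldn3d, relatives of claudin-3, a barrier-forming claudin of mammalian epithelia.

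For cldnb (ENSDARG00000009544, chr21:25765734-25766840), a claudin of zebrafish epithelia, the male libraries read 53.4, 48.5, 66.0 and 68.2 CPM in males, and the female libraries read 9.21, 13.5, 12.3, 20.3 and 19.7 in females. The lowest male stood well above the highest female. The means were 59.0 ± 9.58 CPM in males (SD, n = 4) and 14.999 ± 4.83 in females (SD, n = 5). The log2 fold change was 1.98 ± 0.25 (SE), with an adjusted p of 0.00109 by edgeR's quasi-likelihood test, the smallest among the junction genes. Without both pkd1-named libraries it was 1.76, with an adjusted p of 0.0254 in edgeR.

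For cldnh (ENSDARG00000069503, chr21:25739295-25741411), CPM was 161, 175, 106 and 233 in males, and 39.1, 64.6, 65.6, 64.9 and 80.7 in females. The sexes did not overlap, and F2, F3 and F4 were almost level. The sexes gave a log2 fold change of 1.42 ± 0.26 (SE), with an adjusted p of 0.00568 in edgeR.

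For cldnc (ENSDARG00000015955, chr21:25754268-25756119), values were 99.0, 100.8, 98.2 and 148 CPM in males and 43.6, 44.3, 58.7, 37.3 and 80.7 in females. The groups were separate, but F6 came near the 3 lower males. It had a log2 fold change of 1.08 ± 0.25 (SE), with an adjusted p of 0.0176 in edgeR, and the call was lost without pkd1M4 and without F2.

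The fourth gene of this stretch, cldnd (ENSDARG00000006580, chr21:25777425-25778201), went the other way and failed the filter on low counts. It had 0 counts in each of the 4 male libraries. In females it had 4497 counts in F1, 219 in F4, 113 in F3, 6 in F2 and 2 in F6, or 125, 4.99, 2.74, 0.17 and 0.07 CPM. The female libraries therefore spanned from close to nothing to an abundant transcript. Against a floor of 3 counts per male library, the female mean was at least 270-fold higher with F1 and at least 20.2-fold higher without it. The gene was named by this floor, and F6, at 2 counts, was itself under it, so the fold does not hold for every female library. The female libraries fell in the same order by their summed oocyte markers, at 6883 CPM in F1, 284 in F4, 194 in F3, 116 in F2 and 73.4 in F6, whereas the males read 44.1 to 104. The part of these markers in the result was not tested.

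A further run of 4 claudins lies on chromosome 15, from 2631421 to 2657508, in the order cldnj, cldne, cldnf and cldna. The gene cldne (ENSDARG00000043128, chr15:2638884-2640966), known from the outer cell layer of the zebrafish embryo, had the largest log2 fold change among the called genes. Its CPM was 7.28, 14.6, 3.36 and 39.2 in males, and 1.59, 1.75, 5.79, 1.71 and 2.64 in females. The groups overlapped, since F3 lay above pkd1M1, and pkd1M4 alone held the top of the male range. Its log2 fold change was 2.58 ± 0.68 (SE), with an adjusted p of 0.0321 in edgeR, and it kept the call in 3 of the 9 fits that each left out 1 library. The skin markers, 13 genes, summed to 694 CPM in M2, 979 in pkd1M4, 326 in M1 and 303 in pkd1M1, the same order of males as for cldne. In females they summed to 255, 355, 108, 115 and 456 CPM, and F3, the female highest in cldne, had the lowest sum. The part of these markers in the result was not tested. Its neighbour cldna read 6.03 to 9.49 CPM in males and 2.73 to 4.96 in females, with no overlap and a log2 fold change of 1.09 ± 0.31 (SE). The adjusted p of cldna was 0.0442 in edgeR, and the call was lost whichever library was left out. The other neighbours did not pass, cldnj with 3.21 ± 0.61 CPM in males (SD, n = 4) and 3.29 ± 1.124 in females (SD, n = 5), and cldnf with means of 0.84 and 0.45 CPM.

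Claudin-10 forms paracellular ion pores in the mammalian nephron, with different charge preference for its isoforms. Zebrafish cldn10b (ENSDARG00000104528, chr9:156142-159438) read 201, 278, 228 and 208 CPM in males, and 73.2, 91.6, 58.1, 43.2 and 120 in females. The male values lay close together and above all females, among which F6 was highest. The means of cldn10b were 229 ± 34.9 CPM in males (SD, n = 4) and 77.3 ± 30.0 in females (SD, n = 5). They gave a log2 fold change of 1.57 ± 0.28 (SE) and an adjusted p of 0.00511 in edgeR. Only 281 bases away lies cldn10l2, for which pkd1M4 read 61.8 CPM and the other males 13.3 to 15.1, against 2.69 to 13.9 in females. It had a log2 fold change of 1.61 ± 0.60 (SE) and did not pass, with an adjusted p of 0.112 in edgeR. The third claudin-10 gene among the members, cldn10a, was counted in F1 alone, with 5 counts.

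The gene cldn11a (ENSDARG00000020031, chr2:25997426-26001173) was the one junction gene called lower in males. Claudin-11 in mammals is a tight junction protein of myelin and of the Sertoli cells of the testis. CPM was 12.1, 7.63, 11.5 and 6.67 in males, and 14.6, 20.7, 19.0, 20.2 and 16.6 in females. All males lay below all females, with M1 next to F1. The log2 fold change was -0.94 ± 0.25 (SE), with an adjusted p of 0.0336 in edgeR, and the call was kept in 4 of the 9 fits that each left out 1 library. The myelinating glia markers, 8 genes, summed to 65.0 to 99.5 CPM in males and 96.4 to 167 in females, with 1 of 7 tested lower in males. The testis markers went the other way, at 31.9 to 119 CPM in males and 17.5 to 30.2 in females. The part of either list was not tested. Its duplicate cldn11b read 15.1 ± 4.34 CPM in males (SD, n = 4) and 13.3 ± 3.33 in females (SD, n = 5), and its log2 fold change was 0.18 ± 0.30 (SE).

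The epithelial claudin cldn7b rose in males, from 72.5 ± 13.9 CPM in females (SD, n = 5) to 131 ± 44.5 (SD, n = 4), with no overlap and a log2 fold change of 0.86 ± 0.24 (SE). Its adjusted p was 0.0379 in edgeR, and the call was kept only without pkd1M1 and without F6. Its duplicate cldn7a read 3.60 ± 2.23 CPM in males (SD, n = 4) and 2.57 ± 0.82 in females (SD, n = 5), with no call.

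**Figure D2:**
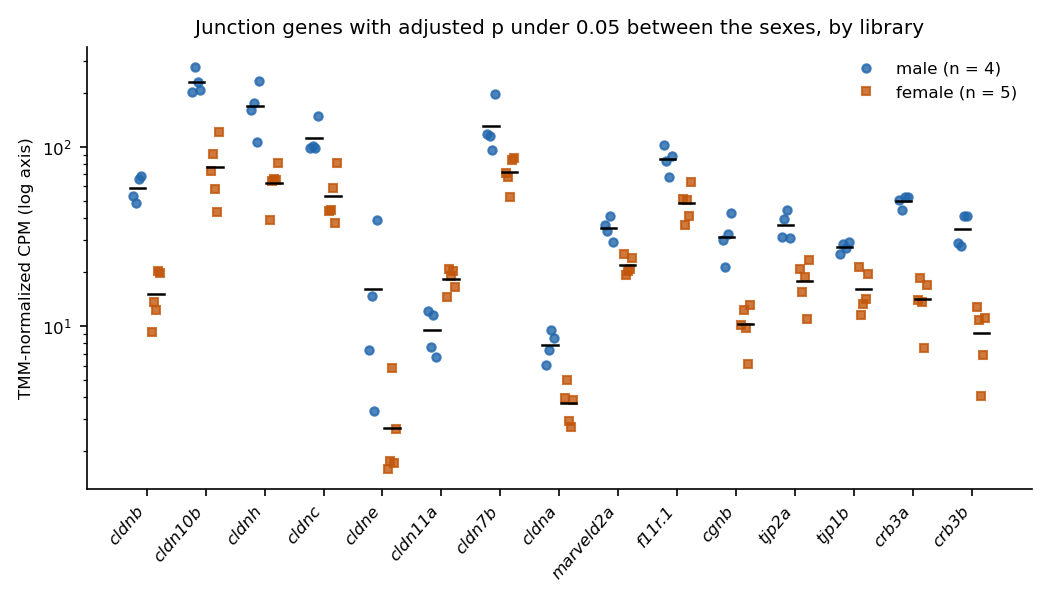
TMM-normalized CPM on a log axis of the 15 junction genes with an adjusted p under 0.05, 1 point per library, circles for the 4 males and squares for the 5 females, with black bars at the means. The sexes separate for 14 genes, with males below only for cldn11a, and overlap for cldne.

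Several claudins with large deposited counts gave no call. The gene cldn12, whose claudin lacks the usual binding motif for scaffold proteins, varied little, at 39.4 ± 6.37 CPM in males (SD, n = 4) and 36.1 ± 1.97 in females (SD, n = 5). Its log2 fold change was 0.13 ± 0.16 (SE), but its span overlaps the gene adam22 and the strand of counting was not given in the sources used here. The gene cldn17, listed as CLDN8 in the name table, read 537 CPM in M1, 189 in M2, 160 in pkd1M1, 334 in pkd1M4, 561, 200, 146, 154 and 240 in females. F1, M1 and pkd1M4 were high in both sexes. Those libraries also had the highest summed skeletal muscle markers, at 391, 407 and 370 CPM against 18.6 to 80.5 elsewhere, and the part of these was not tested. The log2 fold change of cldn17 was 0.23 ± 0.46 (SE) and turned to -0.19 without M1, with no call in either fit. Its span overlaps zgc:110333, named cldn8.2 in the name table, which had 1 count in F6 and 0 in the other libraries.

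Claudins of other known sites were also below the test's threshold. Claudin-5 seals blood vessel endothelium, and cldn5b read 2.07 to 5.13 CPM in males, 5.81 to 13.6 in 4 females and 55.9 in F4, without overlap between the sexes. Its log2 fold change was -2.32 ± 0.73 (SE), with an adjusted p of 0.0604 in edgeR. Without F4 the log2 fold change was -1.22, with an adjusted p of 0.103 in edgeR. It was called lower in males by DESeq2, with a minimum of 10 counts in every library, and without F6. The 14 endothelial markers summed to 520 to 757 CPM in males and 472 to 644 in females, with 598 in F4. Of these markers, 2 were called higher in males and 0 lower, and their part was not tested. The other copy, cldn5a, was also highest in F4, at 6.61 CPM against 1.00 to 2.74 in the other libraries. Claudin-2, a cation and water pore of the mammalian proximal tubule, was scarce, since cldn2 read 0 in 3 of 4 males, 0.56 CPM in M1, and 0.30 to 1.65 in females. Only without M1 was cldn2 called, as lower in males and past both limits, with the remaining males all at 0. The gene rbm41 overlaps the span of cldn2. The claudin cldng, like cldnd, was high in F1, at 136 CPM, where the other libraries read 6.77 to 16.7. Its log2 fold change was -1.39 ± 0.82 (SE) and became 0.23 without F1, with an adjusted p of 0.741 in edgeR. This gene was singled out after its values were seen.

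The rest of the tested claudins were mostly low and gave no call. For cldn23a, males read 1.60, 1.70, 0.85 and 4.64 CPM and females 0.36, 0.14, 0.75, 0.09 and 0.30, which did not overlap, and the adjusted p was 0.0633 in edgeR. The neighbouring cldn23b read 0.68 to 3.57 in males and 0.25 to 2.37 in females. The gene cldni, whose span overlaps coro1a, read 0 to 2.17 CPM in males and 2.40 to 5.62 in females, also without overlap, and its adjusted p was 0.248 in edgeR. Claudin-15 forms cation pores in the mammalian gut, and cldn15a read 18.9 ± 6.51 CPM in males (SD, n = 4) and 19.0 ± 4.85 in females (SD, n = 5). Its duplicate cldn15b, whose span overlaps naa38, read 8.09 and 5.81 CPM on average, and the gene cldn15lb read 0.07 to 5.14 in males and 0 to 1.61 in females. The myelin claudin cldnk read 1.02 ± 0.58 CPM in males (SD, n = 4) and 1.07 ± 0.98 in females (SD, n = 5).

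**Figure D3:**
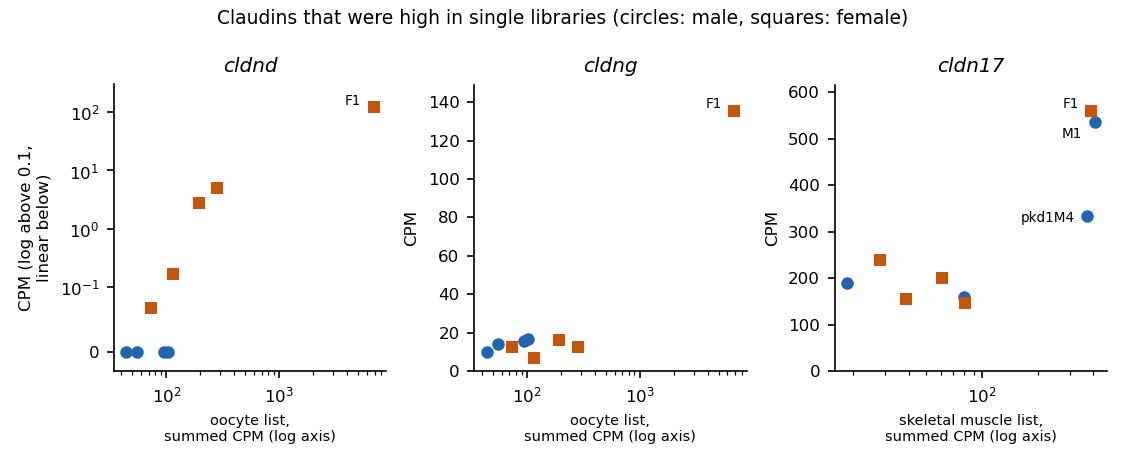
CPM of cldnd, cldng and cldn17 in each library against the summed CPM of 22 oocyte markers or 12 skeletal muscle markers (log x axes), with circles for males and squares for females. F1 lies far from the other 8 libraries in the first pair of panels, and F1, M1 and pkd1M4 form the upper right of the third.

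Claudins at or near 0 were cldn18, with 0 counts in all 9 libraries, where a floor of 3 counts corresponds to 0.0641 to 0.130 CPM, and cldn1, cldn10a and cldn19. In males, cldn1 had at most 3 counts, and cldn10a and cldn19 had 0. In females, each exceeded 3 counts in 1 library, with 11 counts of cldn1 in F4, 5 of cldn10a in F1 and 18 of cldn19 in F4. Claudin-19 belongs to the thick ascending limb of the mammalian nephron, and no fold is given for these genes because both sexes were near the floor. The gut claudin cldn15la also failed the filter, at 0 to 0.85 CPM. The claudin domain genes cldnd1a and cldnd1b were both tested and neither passed, at 8.18 and 4.14 CPM in males and 6.14 and 6.40 in females.

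Among the 6 occludin and MARVEL genes, 1 was higher in males and 5 did not pass. With 13.2% of all genes tested passing in either direction, 1 call in 6 does not set this group apart. Tricellulin seals the corners where 3 cells meet, and its gene marveld2a (ENSDARG00000025076, chr10:2943676-2971407) read 36.4, 33.9, 40.8 and 29.3 CPM in males, and 25.0, 19.2, 20.3, 20.8 and 23.9 in females. The sexes did not overlap and the spread within each was small. It had a log2 fold change of 0.68 ± 0.17 (SE), with an adjusted p of 0.0240 in edgeR, and the call was kept in 5 of the 9 fits that each left out 1 library.

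Occludin regulates the passage of larger solutes. Its gene oclnb read 14.8, 19.6, 14.1 and 19.2 CPM in males, and 7.90, 1.95, 4.12, 6.49 and 10.96 in females. The groups were separate, with a log2 fold change of 1.43 ± 0.43 (SE), but the adjusted p was 0.0507 in edgeR, just short of the threshold. The gene oclnb was called higher in males with RLE size factors, by DESeq2, with a minimum of 10 counts in every library, and without F6. No other fit called it. The other occludin gene, oclna, read 7.52 to 22.8 CPM over all libraries with the sexes mixed, and its log2 fold change was 0.28 ± 0.37 (SE). The occludin and tricellulin genes are paired in the genome, oclna with marveld2a on chromosome 10 at 201 bases and marveld2b with oclnb on chromosome 5 at 774 bases. In each pair 1 gene, marveld2a and oclnb, separated the sexes and its neighbour overlapped. Values of marveld2b ran from 1.24 to 11.1 CPM in males and from 0.31 to 4.79 in females. The remaining family members also overlapped, marveld1 with 0.60 to 5.39 CPM in males and 2.84 to 14.1 in females, and marveld3 with 2.77 to 10.1 and 0.78 to 7.93.

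The junctional adhesion molecule gene f11r.1 (ENSDARG00000017320, chr5:29831195-29848772) was higher in males, at 101.8, 83.3, 67.8 and 88.6 CPM in males, against 51.2, 36.6, 50.6, 40.9 and 63.4 in females. The lowest male, pkd1M1, was just above F6. Its log2 fold change was 0.81 ± 0.20 (SE), with an adjusted p of 0.0223 in edgeR, and the call was lost without M1, without pkd1M4 and without F2. Its tandem neighbour f11r.2 stayed at or below 1.40 CPM in every library.

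Of the 8 scaffold genes, 3 were higher in males and 5 did not pass, where 7.02% of all genes tested were called higher. Cingulin links the junction to actomyosin, and cgnb (ENSDARG00000058690, chr19:7636941-7680056) read 30.0, 21.4, 32.4 and 42.4 CPM in males, and 10.16, 12.3, 9.76, 6.15 and 13.1 in females. No female reached the lowest male. Expressed as a log2 fold change this was 1.62 ± 0.27 (SE), with an adjusted p of 0.00413 in edgeR. The second cingulin gene, cgna, whose span overlaps si:dkey-238m4.3, read 11.4 to 18.5 CPM in males and 6.20 to 18.6 in females. Paracingulin, cgnl1, read 27.4 ± 7.21 CPM in males (SD, n = 4) and 35.3 ± 11.99 in females (SD, n = 5).

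Of the zonula occludens genes, tjp2a and tjp1b passed the test. The ZO-2 gene tjp2a (ENSDARG00000063309, chr10:15815865-15879569) read 31.3, 39.6, 44.1 and 30.7 CPM in males, and 20.8, 15.4, 18.7, 10.9 and 23.2 in females. These did not overlap, and the log2 fold change was 1.03 ± 0.24 (SE), with an adjusted p of 0.0178 in edgeR that was lost without pkd1M1. Its duplicate tjp2b read 50.7 ± 11.4 CPM in males (SD, n = 4) and 44.99 ± 11.6 in females (SD, n = 5). The ZO-1 gene tjp1b was higher in males at 27.6 ± 1.74 CPM (SD, n = 4) against 15.96 ± 4.25 in females (SD, n = 5). Its log2 fold change was 0.79 ± 0.22 (SE), with an adjusted p of 0.0392 in edgeR. That call was kept only without F1 and without F6. Its duplicate tjp1a read 24.5 to 26.8 CPM in males and 20.4 to 56.8 in females, with a log2 fold change of -0.56 ± 0.26 (SE) and no call. The span of tjp1a overlaps terb2. The ZO-3 gene tjp3 read 31.1 to 40.6 CPM in males and 10.6 to 28.5 in females without overlap, and missed the threshold with an adjusted p of 0.0598 in edgeR.

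Of the 14 polarity genes, 11 were tested and 2 passed, both of them crb3 copies and both higher in males. Over all genes tested, 13.2% passed in either direction, 7.02% as higher and 6.20% as lower in males. A count of 2, both of them crb3 copies, does not set the polarity genes apart as a group. Crumbs 3 is the short apical Crumbs protein of mammalian epithelia, and crb3a (ENSDARG00000102948, chr3:49521106-49548229) read 50.4, 44.2, 52.1 and 52.5 CPM in males, and 13.9, 18.5, 13.6, 7.54 and 17.0 in females. The male values were nearly level and far above every female. The means were 49.8 ± 3.87 CPM for males (SD, n = 4) and 14.1 ± 4.201 for females (SD, n = 5). These gave a log2 fold change of 1.82 ± 0.24 (SE) and an adjusted p of 0.00130 in edgeR. The duplicate crb3b (ENSDARG00000068182, chr1:56180416-56184928) read 29.1, 27.7, 41.1 and 41.3 CPM in males, and 12.7, 10.8, 4.05, 6.90 and 11.1 in females. It also separated the sexes, with a log2 fold change of 1.93 ± 0.33 (SE) and an adjusted p of 0.00415 in edgeR. None of the other 9 polarity genes tested passed. Among them, pard3ab read 55.01 CPM in pkd1M1 and 13.4 to 28.6 in the other libraries, and pard6gb read 2.77 to 8.06 in males and 3.64 to 8.31 in females. The long Crumbs genes were scarce, with crb2a and crb2b at or below 1.87 CPM everywhere and crb1 at 0 in 5 of the 9 libraries and 2.34 to 5.49 in the other four. The genes pard6a, pard6b, pard3bb and the tested pard3ba stayed at or below 7.07 CPM, and pard3aa, pard6ga and the second pard3ba identifier failed the filter, at or below 0.68 CPM.

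Zebrafish keep many of these genes as duplicates, and 15 pairs matched by symbol could be compared within each library. Paired symbols were alike but for a last a or b, or the last digit of the f11r genes. This took in pard6a with pard6b, whose letters may name separate genes, and left out pard3ba with pard3bb. The log2 ratio of the copies (CPM with 0.5 added) does not depend on gene length when compared between sexes. The ratio separated the sexes in 3 pairs and overlapped in 12, and no such share was computed over other gene pairs. The cgna and cgnb copies differed by -1.16 on the log2 scale, male minus female, with cgna at 23.3% to 40.9% of the pair in males and 45.03% to 65.6% in females. For tjp2a and tjp2b the difference was 0.86, with tjp2a at 40.6% to 44.8% in males and 25.9% to 31.2% in females. For tjp1a and tjp1b it was -1.29, with tjp1a at 47.3% to 50.6% in males and 59.0% to 76.0% in females. By exact permutation tests, 2-sided, the p-values were 0.00794 for the first and second pairs, the smallest that 126 splits can give, and 0.0159 for the third, with Benjamini-Hochberg adjusted values over the 15 pairs of 0.0595, 0.0595 and 0.0794. None of the 15 passed 0.05 after adjustment, but 2 pairs at the smallest possible p reached only 0.0595. The adjusted values therefore cannot decide whether the ratios of these pairs differ between the sexes. The crb3 copies differed least, by -0.11 with p = 0.833 in the same exact test, and crb3a held 55.9% to 63.4% of the pair in males and 52.2% to 77.1% in females. Kallisto divides reads shared by similar transcripts, so the split within a pair or a tandem run is an estimate.

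**Figure D4:**
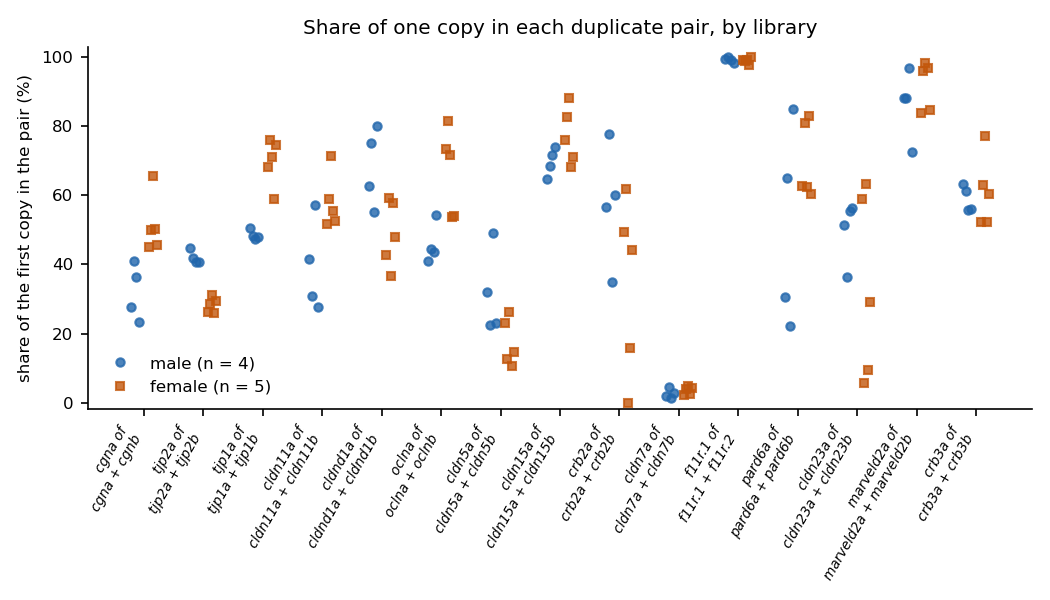
Share of the first gene in the summed CPM of each of 15 pairs matched by symbol, in percent, 1 point per library. Circles are males and squares are females. The sexes separate for cgna, tjp2a and tjp1a and overlap for the 12 other pairs.

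Several marker lists held called genes or sums that differed between the sexes, given here beside the called members. Over all genes tested, 7.02% were called higher and 6.20% lower in males, and several lists rest on 1 or 2 called genes. Endothelial markers had 2 of 14 tested higher, skin markers 1 of 9 higher, and podocyte markers 1 of 8 higher and 1 lower. The sums of these 3 lists overlapped between the sexes. Of the 17 distal tubule markers, 16 were tested, 9 were higher in males and none was lower. Among those higher were the salt transporters slc12a1 and slc12a3 and the chloride channel subunit bsnd. The list summed to 1007 to 1507 CPM in males and 348 to 839 in females, with F6 highest among females, and 4 of 16 tested proximal tubule markers were also higher in males. Markers of multiciliated cells summed to 122 to 155 CPM in males and 49.8 to 116 in females, with 2 of 8 tested higher, and intestine markers to 160 to 279 and 64.4 to 123, with 2 of 5 tested higher and fabp6 and chia.2 at 0 in every library. Lymphoid and myeloid markers went the other way, with 3 of 12 and 6 of 11 tested lower in males. Of the other blood cell lists, 0 of 10 erythroid and 1 of 7 thrombocyte markers were lower, and both sums overlapped between the sexes. The lymphoid list summed to 39.3 to 94.5 CPM in males and 97.7 to 194 in females, and the myeloid list to 3699 to 6646 and 6463 to 9509, where the sexes overlapped. Of 16 oocyte markers tested, 9 were lower in males, with overlapping sums of 44.1 to 104 CPM in males and 73.4 to 6883 in females. Testis markers summed to 31.9 to 119 CPM in males and 17.5 to 30.2 in females, without overlap, and 0 of 7 tested were called. Taken as a percentage of the distal tubule sum in the same library, a comparison chosen after the values were seen, 13 of the 15 called genes overlapped between the sexes. Of all genes called in either direction, list members left out, 48.5% overlapped under the same division, and of those called higher in males 89.9%. Among the junction genes called higher, all but f11r.1 overlapped, a share near that 89.9%. For cldn10b this percentage was 13.8 to 22.7 in males and 12.4 to 20.9 in females, and for cldnb it was 3.26 to 6.55 and 2.35 to 5.83. Both exceptions had males below females: cldn11a at 0.44 to 1.14 against 1.98 to 5.80, and f11r.1 at 5.59 to 7.41 against 7.56 to 14.6. Males lay below females for 40.4% of all genes tested, 98.1% of all genes called lower and 1.62% of those called higher. The divisor was itself higher in males. The part of the tubule, ciliated, intestine, blood cell, oocyte, testis, endothelial, skin and podocyte markers in the sex difference was not tested.

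**Figure D5:**
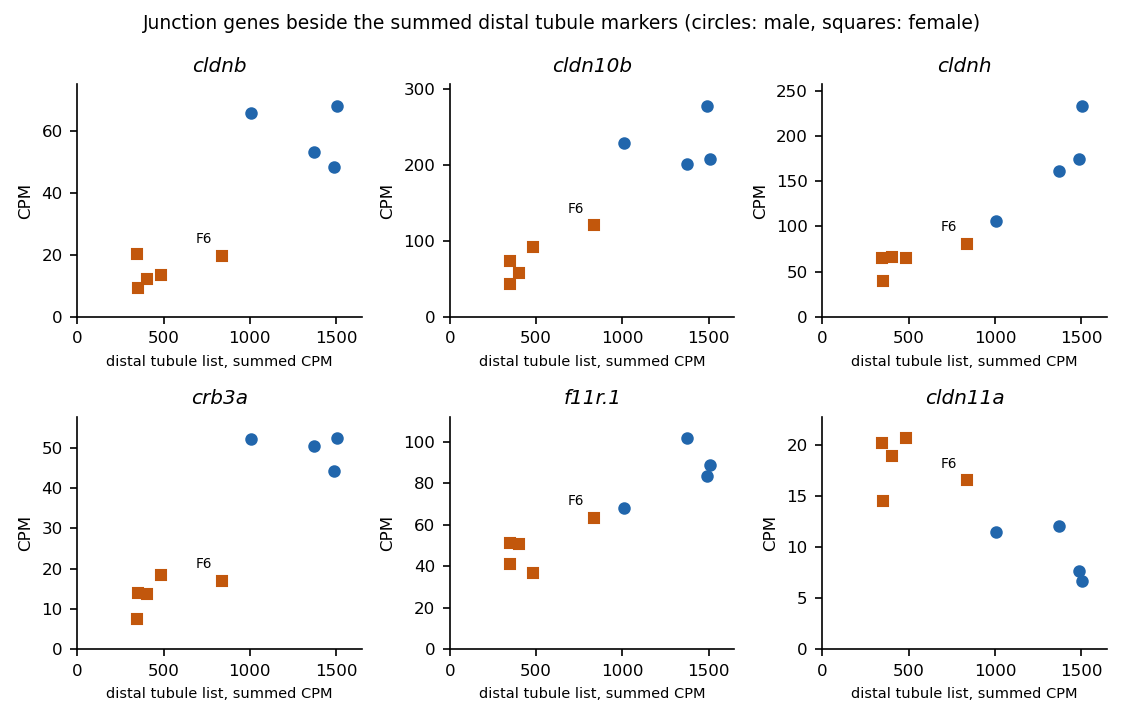
CPM of 6 junction genes in each library against the summed CPM of 17 distal tubule markers, with circles for the 4 males and squares for the 5 females. F6, the female nearest the males on the x axis at 839, is labelled, and cldn11a is the panel where males lie below females.

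Other junction genes were taken from lists of tight junction partners and of adherens junction genes, 60 in all, of which 56 were tested. A total of 9 were higher in males, 2 were lower and the rest did not pass, and their median log2 fold change was 0.19. Over all genes tested, 7.02% were called higher and 6.20% lower. On the adherens junction list, 6 of 19 tested were higher. These included epcam, an adhesion molecule that binds claudins, at 430 ± 79.7 CPM in males (SD, n = 4) and 141 ± 39.1 in females (SD, n = 5), and E-cadherin, cdh1, at 225 ± 70.0 and 106 ± 26.8 CPM. The kidney cadherin cdh17 rose from 650 ± 260 to 1706 ± 258 CPM with a log2 fold change of 1.39 ± 0.26 (SE). N-cadherin, cdh2, was the one lower gene on that list, at 12.7 ± 1.17 CPM in males and 44.6 ± 10.7 in females, without overlap, and a log2 fold change of -1.81 ± 0.22 (SE). On the tight junction partner list, 3 of 38 tested were higher, a share near that of all genes. One was lsr, the angulin that recruits tricellulin to cell corners, at 65.4 ± 15.05 against 25.6 ± 5.39 CPM and a log2 fold change of 1.35 ± 0.21 (SE). The others were arhgef18a, at 1.36 ± 0.34 (SE), and magi3b, at 5.14 ± 1.44 (SE), whereas magi2a was lower at -1.67 ± 0.44 (SE), all as log2 fold changes. All named here had an adjusted p under 0.05 in edgeR. With 1 library left out at a time, magi3b kept the call only without M1 and without F6, and magi2a only without pkd1M4 and without F4. In these fits arhgef18a lost the call without each of M2, F1, F2, F3 and F4, and cdh1 lost it without pkd1M4. The genes epcam, cdh17, cdh2 and lsr kept it throughout. The call of magi3b was also absent with a minimum of 10 counts in every library. The count of called partners fell from 11 to 6 without F2 and to 7 without pkd1M4, and was 4 without the pkd1-named libraries.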

How the data were processed

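Paired-end reads of 9 kidney libraries were assigned by the authors to GRCz11 transcripts (Ensembl 101) with Kallisto, and summed to genes with tximport. The labels also name GRCz10, and the chromosome lengths in the table fit GRCz11. The deposited values are estimated counts, whole numbers described by the file header as scaledTPM and by the methods as length-scaled TPM, so levels of different genes were not compared per length and gene lengths were not used here. No column of per-sample values was left out, 0 in all. The columns pkd1M1, pkd1M4 and F6 match no sample number and were used by sex only.

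Genes were filtered with filterByExpr and scaled with TMM, and sexes were tested by quasi-likelihood in edgeR 4.0.16 (limma 3.58.1, R 4.3.3), with p-values adjusted by Benjamini-Hochberg over all genes tested. CPM means and SD come from TMM-scaled libraries. Ratios and depth were compared with exact permutation tests in scipy 1.17.1. The filter and test were tried on simulated counts. Libraries of 1 sex differed from each other by more than sampling noise, and none was merged.

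Members and lists were chosen with earlier results of these data known. Text names members with an adjusted p under 0.05 (values by library for the 12 smallest p), the 10 with the highest mean CPM, those at 3 or fewer counts in every library of 1 sex, the other copies of called genes and up to 5 near misses, and others described with them were chosen after their values were seen. Alternatives were RLE size factors, DESeq2 1.42.0 (Wald test), omission of the filter, a minimum of 10 counts per library, omission of single libraries, a replicate block, and the pkd1-named libraries left out or given a term. Figures used matplotlib 3.10.9.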

Additional observations from a re-analysis of the deposited data

Results flagged for a closer look

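Among the groups of 4 or 5 libraries of the named genes, 61 were examined for 1 library far from its group by Dixon's test, and 11 stood apart. In 3 of those all other libraries were at 0, so that any count stands apart. Without these 3 groups, 8 of 58 remained. The 5% set for Dixon's test holds for normally distributed values and is not a chance rate for these groups. Some genes, cldnd and cldn19 among them, were named because a library of 1 sex exceeded a floor that the other sex did not. F1 stood apart for cldnd at 125 CPM (others 0.07 to 4.99), cldn17 at 561 (others 146 to 240) and cldn10a at 0.14 (others 0). F4 stood apart for cldn5b at 55.9 CPM (others 5.81 to 13.6), cldn19 at 0.41 (others 0 to 0.07) and cldn1 at 0.25 (others 0), and F3 for cldne at 5.79 CPM (others 1.59 to 2.64). Among males, pkd1M4 stood apart for cldnc at 148 CPM (others 98.2 to 100.8) and cldn10l2 at 61.8 (others 13.3 to 15.1), pkd1M1 for cldn11b at 8.55 (others 17.1 to 17.4), and M1 for cldn1 at 0.13 (others 0).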

How the results depend on the processing

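Of the counts of called genes (6 junction genes past both thresholds, 15 with an adjusted p under 0.05, 11 partner genes), RLE size factors gave 6, 16 and 11, DESeq2 9, 20 and 15, no filter 6, 13 and 10, and a minimum of 10 counts 7, 18 and 12. Leaving out 1 library at a time gave 3 to 8, 7 to 16 and 6 to 10. Deviations of M1 with F1 and M2 with F2 correlated at 0.029 and -0.038. Differently numbered libraries were not compared, so these 2 values cannot decide whether replicate numbers pair the libraries. The block on M1, M2, F1 and F2 gave 3, 3 and 4. The same 4 libraries without the block gave 1, 1 and 2, a fit chosen after seeing the data. Leaving out the pkd1-named libraries gave 3, 4 and 4, a term for them 4, 6 and 5, and leaving out F1 as well, chosen after seeing the data, 1, 2 and 2. These fits hold fewer libraries or fewer residual degrees of freedom, and the cause of the lower counts was not otherwise tested. The log2 fold change of cldn17 ranged from -0.19 without M1 to 0.72 without F1 when 1 library was left out, was 0.97 without F1 and the pkd1-named libraries, and was -0.072 with the block and -0.067 in the same libraries without it, and that of tjp2b reversed to -0.036 with the block and -0.045 without it. Neither gene was called in any of these, and the cause was not tested. Depth limits the genes at or under a floor of 3 counts, and intervals for them were not computed.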

Other observations

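The name table gives a claudin, MARVEL or Pard3 name to 10 further genes that the count table lists under clone names or in capitals, and these were looked at after the values of the junction genes were seen. Those named cldn33b, cldn8.2, cldn10d, cldn10e and cldn26 failed the filter on low counts and were not tested. Of the rest, 2 passed an adjusted p of 0.05 in edgeR, both higher in males. Over all genes tested, 7.02% were called higher and 6.20% lower. The gene zgc:136892, named cldn30, lies on chromosome 21 from 25793970 to 25795968, next to the cldnh to cldnd stretch. It read 6.46, 5.47, 3.83 and 13.4 CPM in M1, M2, pkd1M1 and pkd1M4 and 1.78, 1.64, 0.70, 1.62 and 2.81 in F1, F2, F3, F4 and F6. The sexes did not overlap, and the log2 fold change was 2.09 ± 0.50 (SE), with an adjusted p of 0.0216 in edgeR. The gene si:dkey-208k22.6, named marveld2l, a relative of tricellulin by name, read 13.7 to 34.8 CPM in males and 3.85 to 17.9 in females. F6, at 17.9 CPM, lay above M2, at 13.7, and the log2 fold change was 1.41 ± 0.42 (SE), with an adjusted p of 0.0482 in edgeR. The other 8, with the claudin-10 genes named cldn10d and cldn10e among them, were scarce. Of these, zgc:112437, named cldn29 and lying inside the chromosome 21 stretch, read 0 to 1.23 CPM.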
